A study of Rattus norvegicus with 48 samples.

Results

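Kidney and left ventricular muscle of the same Dahl salt-sensitive rats were compared on a low-salt diet. The comparison used 12 arrays of the 48 in the series, 6 from kidney and 6 from left ventricle, chosen by the tissue, diet and antibody in the array titles and tied in pairs by the animal number there. Both groups were male SS/JrHsd rats, an inbred strain that becomes hypertensive when salt intake is high. They had eaten 0.1% NaCl from 6 weeks of age for a stated 8 weeks and were given 1 intraperitoneal dose of a control mouse IgG1 (50 µg/kg) in week 7, at 15 weeks of age. The age on the labels is 16 weeks, and these ages and diet weeks do not add up. The same contrast in 6 other low-salt rats, which had an antibody against marinobufagenin at the same dose in place of the control IgG1, is given for comparison. Marinobufagenin is a steroid that inhibits the sodium pump. The series also holds rats on 8% NaCl, which were not used here. The array titles name the cardiac tissue as lateral ventricle and the design text names it as left ventricle, and left ventricle is used here. All animals came from 1 strain and 1 sex. The controls were not untreated, since each had received the IgG1.

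The kidney filters blood in the glomerulus and then recovers most of the filtrate along the proximal tubule, the loop of Henle, the distal tubule and the collecting duct, each with its own transporters. Working heart muscle contracts through sarcomeres that calcium switches on at each beat, and it burns mainly fatty acids in densely packed mitochondria. Both tissues depend on the sodium pump (Na,K-ATPase), which moves sodium out of the cell and potassium in, and FXYD proteins tune the pump in a tissue-dependent manner.

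The values are intensities of bead-array probes, each with a detection p-value from the arrays' negative controls, and a probe with a detection p below 0.05 is called detected here. Intensities were background-corrected, quantile normalized over the 12 arrays and put on the log2 scale, so that a difference of 1 is a 2-fold difference. All levels below are on that log2 scale, and all log2 differences are kidney minus left ventricle within an animal, with their standard error (SE, n = 6 animals). A probe counted as different had a Benjamini-Hochberg adjusted p below 0.05 from limma. Between 9995 and 10928 probes of 22523 were detected on a kidney array, against 7504 to 8248 on a left ventricular array. The mean was 10585 ± 334 in kidney and 7994 ± 316 in left ventricle (SD, n = 6 each), and kidney was higher in 6 of 6 animals (exact sign-change permutation test, two-sided p = 0.0312, the smallest that 6 pairs allow, and 0.0312 after adjustment over 4 array measures). The 95th percentile of log2 intensity was 12.05 ± 0.38 in kidney and 10.54 ± 0.20 in left ventricle, with the same exact p. The 100 brightest probes held 17.5% ± 1.0 of the background-corrected signal in kidney and 26.4% ± 0.7 in left ventricle (SD, n = 6 each), lower in kidney in 6 of 6 animals with the same exact p. The median log2 intensity of undetected probes was 7.67 ± 0.18 in kidney and 7.29 ± 0.02 in left ventricle, again with that exact p. Deposited kidney intensities were whole numbers and left ventricular ones carried 1 decimal, so the tissues may have been exported apart, and a batch of arrays and the tissue cannot be told apart here.

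Several arrays stood apart from the others of their tissue. Kidney replicate 2 had 334 tested probes more than 1 log2 unit above all 5 other kidneys and 592 more than 1 unit below them, whereas the other kidney arrays had at most 7 above and 2 below. Gatm, which encodes the first enzyme of creatine synthesis, read 8.47 on that array, against 12.15 to 12.71 on the other 5 kidneys. Egr1, an immediate early gene, read 12.66 there, against 7.50 to 10.27 on the other 5 kidneys. Left ventricle replicate 3 carried signal of kidney genes. It had 36 probes more than 1 unit above the other ventricles, and 31 of these were over 16-fold higher in kidney. Of the 342 probes that were over 16-fold higher in kidney, 149 had their highest ventricular value on that array, against 35 to 45 for each other ventricle. Kap, the kidney androgen-regulated protein, read 11.68 there, against 4.91 to 6.38 on the other 5 ventricles. Left ventricle replicate 6 stood apart in Myl7, the atrial myosin light chain, at 13.64 against 6.97 to 8.67 in the other 5 ventricles. Kidney replicate 1 had the highest kidney level of Hbb, the beta globin, at 15.31 against 10.72 to 12.41 in the other 5 kidneys. Left ventricle replicate 4 was the highest ventricle for the adrenal cortex markers Hsd3b1 and Cyp11b1. Hsd3b1 read 7.44 there, against 5.01 to 5.24 in the other 5 ventricles, and Cyp11b1 read 8.245, against 6.02 to 6.74. The part of tissue carry-over, blood content or RNA quality in these readings was not tested. Results below are also given over the 3 animals with replicates 1, 4 and 5, without animals 2, 3 and 6. These results still include kidney replicate 1 and left ventricle replicate 4. They are given where that alters the call of a gene described or the counts of a marker list.

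**Figure D1:**
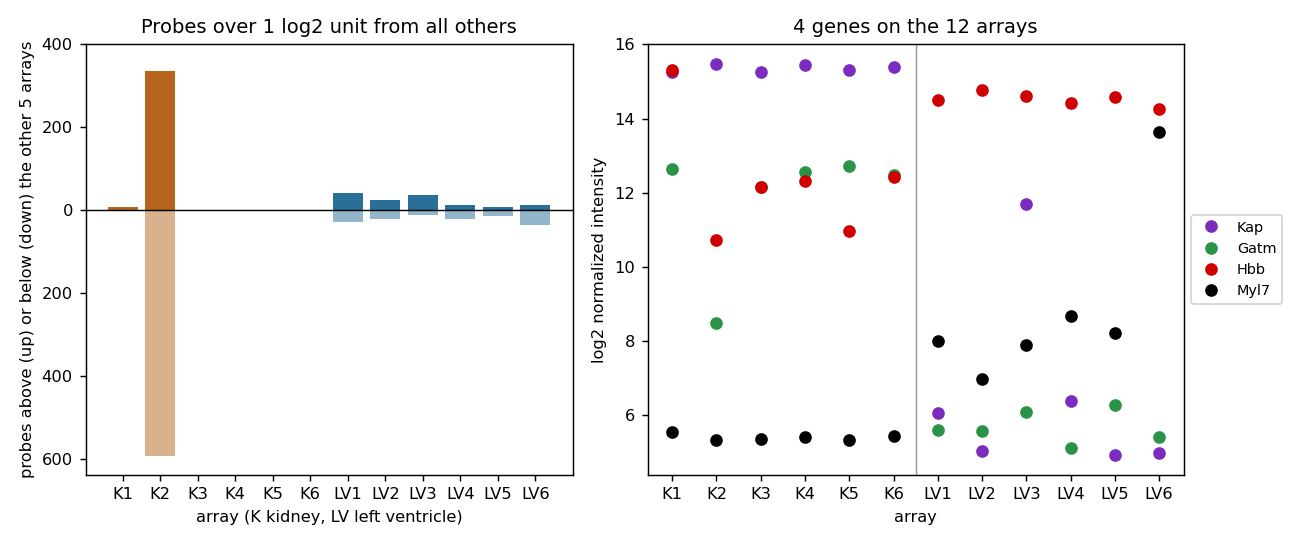
Left, number of tested probes on each array that lie more than 1 log2 unit above (upward bars) or below (downward, paler bars) all 5 other arrays of the same tissue, kidney (K) in brown and left ventricle (LV) in blue. Right, log2 normalized intensity of Kap, Gatm, Hbb and Myl7 on each array. Kidney replicate 2 has 334 probes above and 592 below the other kidneys, Gatm reads 8.47 there, Kap reads 11.68 on left ventricle replicate 3, and Myl7 reads 13.64 on left ventricle replicate 6.

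Most measured genes differed between the tissues. Of 9960 probes tested, 3593 were higher and 3736 lower in kidney, which makes 73.6% called in either direction, 36.1% higher and 37.5% lower. These shares are the background for every count of list or marker genes below. A further 2631 did not pass. Over 2-fold, 2089 probes were higher and 1998 lower, and over 16-fold 342 were higher and 170 lower. The kidney and ventricular values did not overlap for 53.4% of tested probes. Detection was more lopsided, with 1193 probes detected on all 6 kidneys and no ventricle and 165 on all 6 ventricles and no kidney. After normalization the lowest signal among detected probes was also lower on kidney arrays, at 5.67 to 5.85 against 6.385 to 6.73 on ventricular arrays. A probe of either kind was tested only through its signal in 1 tissue, which favours a difference without forcing one. The median log2 difference of tested probes was -0.03. Scaling each array by its median in place of quantiles moved that median to 0.83 and the split to 6498 higher and 1418 lower, and with no normalization between arrays it was 1.55. A difference of the size of these shifts depends on how the arrays are aligned, and directions that turn under another scaling are named beside each gene. Without kidney replicate 2's animal, 3689 were higher and 3853 lower. With the 3 remaining animals, 3340 were higher and 3492 lower. Over all tested probes, arrays of 1 tissue correlated at 0.941 to 0.995 in kidney and 0.965 to 0.981 in left ventricle, whereas a kidney and a ventricle correlated at 0.613 to 0.694.

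**Figure D2:**
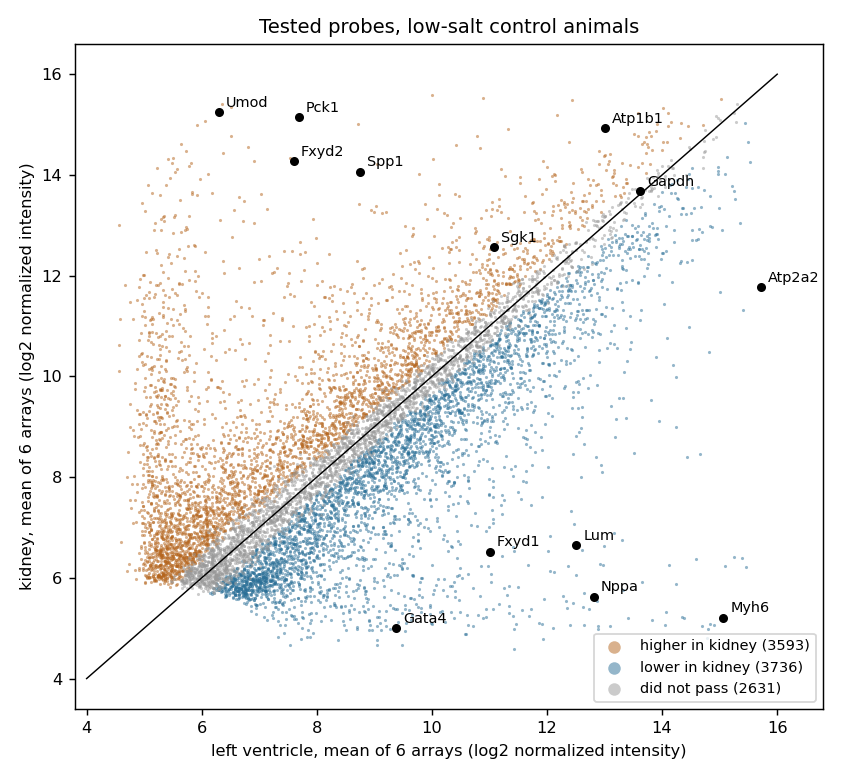
Mean log2 normalized intensity of each of 9960 tested probes in left ventricle (x axis) and kidney (y axis), 6 arrays each, with the line of equal values. Brown points are higher in kidney (3593), blue points lower (3736) and grey points did not pass (2631). Umod, Pck1 and Fxyd2 lie far above the line, Myh6, Nppa and Lum far below it, and Gapdh on it.

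The genes that led in kidney were tubular enzymes and transporters. The 12 leading genes, in order of the log2 difference, were Cyp2c23, Slc7a13, Dao, Umod, Agxt2, Spink1l, Kap, Cltrn, Miox, Epcam, Ass1 and Sult1c2, with differences from 9.06 down to 8.55. None of the 12 overlapped between tissues. Cyp2c23, an arachidonic acid epoxygenase abundant in rat kidney, had lowest, median and highest levels of 14.59, 15.06 and 15.15 in kidney, against 5.20, 5.46 and 8.48 in left ventricle. Its log2 difference was 9.06 ± 0.39 (adjusted p = 4.29e-08). Umod encodes uromodulin, the main protein of normal urine, made in the thick ascending limb. It read 15.00, 15.24 and 15.42 in kidney and 5.56, 6.06 and 7.68 in left ventricle, a log2 difference of 8.95 ± 0.24 (adjusted p = 1.58e-09). Kap read 15.26, 15.35 and 15.48 in kidney, against 4.91, 5.53 and 11.68 in left ventricle, with a log2 difference of 8.86 ± 0.82 (adjusted p = 8.4e-06). That SE was the widest of the 12, and the difference was 9.90 without animal 3. Dao, the peroxisomal D-amino acid oxidase, differed by 8.97 ± 0.50, and Agxt2, a mitochondrial aminotransferase that handles glyoxylate and beta-amino acids, by 8.90 ± 0.38. Slc7a13, an acidic amino acid transporter of the straight proximal tubule, differed by 9.01 ± 0.54.

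Ass1, argininosuccinate synthase, with which the proximal tubule makes arginine for the body, showed no such high ventricular array. It read 13.42, 13.85 and 14.00 in kidney and 4.79, 5.01 and 5.56 in left ventricle, where it was not well above background on any of 6 arrays. For such genes the dim tissue gives only a bound. The difference is then written as at least so many fold, counted from the lowest signal among detected probes on each dim array. Ass1 was at least 157-fold higher in kidney (fitted log2 difference 8.73 ± 0.17, adjusted p = 2.62e-10). Of the 12 genes, Ass1 and Spink1l were undetected on every ventricle, and the other 10 were detected on 1, left ventricle replicate 3. Without that animal, all 12 were undetected on the remaining ventricles, and Cyp2c23 was at least 352-fold higher and Kap at least 463-fold higher in kidney. Cltrn, collectrin, which carries amino acid transporters to the brush border, was at least 226-fold higher on the same basis. Miox, which begins the breakdown of inositol and is made mainly in proximal tubule, was at least 243.04-fold higher. Epcam, an adhesion molecule of epithelia, was at least 207-fold higher, and Sult1c2, a cytosolic sulfotransferase, at least 193-fold higher.

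The genes that led in left ventricle were those of the contractile machine and its fuel supply. The 12 leading genes were Myh6, Ckm, Myoz2, Mb, Myh7, Eef1a2, Tnnt2, Actn2, Tnni3, Ankrd1, Nppb and Tpm1, with log2 differences from -9.85 to -8.83, and none overlapped. Myh6, the fast alpha myosin heavy chain of rat ventricle, read 5.01, 5.22 and 5.36 in kidney, against 14.90, 15.06 and 15.21 in left ventricle. It was undetected on all 6 kidneys and at least 641-fold lower there (fitted log2 difference -9.85 ± 0.11, adjusted p = 2.14e-11). Myh7, the slow beta heavy chain, read 4.83, 5.06 and 5.15 in kidney and 14.61, 14.69 and 14.77 in left ventricle and was at least 494-fold lower in kidney. Ckm, the muscle creatine kinase, was at least 576-fold lower in kidney. Mb, myoglobin, which stores oxygen in muscle, was at least 546-fold lower. Eef1a2, the muscle and nerve form of a translation elongation factor, was at least 344-fold lower. Nppb, the precursor of B-type natriuretic peptide, read 4.97, 5.10 and 5.15 in kidney and 13.28, 14.08 and 14.56 in left ventricle and was at least 317-fold lower in kidney. The ventricular values of these genes were close together, with SDs of 0.06 for Myh7 and 0.45 for Nppb as the smallest and largest of the 12. Tnnt2, Ankrd1 and Tpm1 were detected on all 6 kidneys at low levels. Tnnt2, cardiac troponin T, read 5.80, 6.17 and 6.88 there, against 15.36, 15.43 and 15.58 in left ventricle, a log2 difference of -9.23 ± 0.17 (adjusted p = 1.98e-10).

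**Figure D3:**
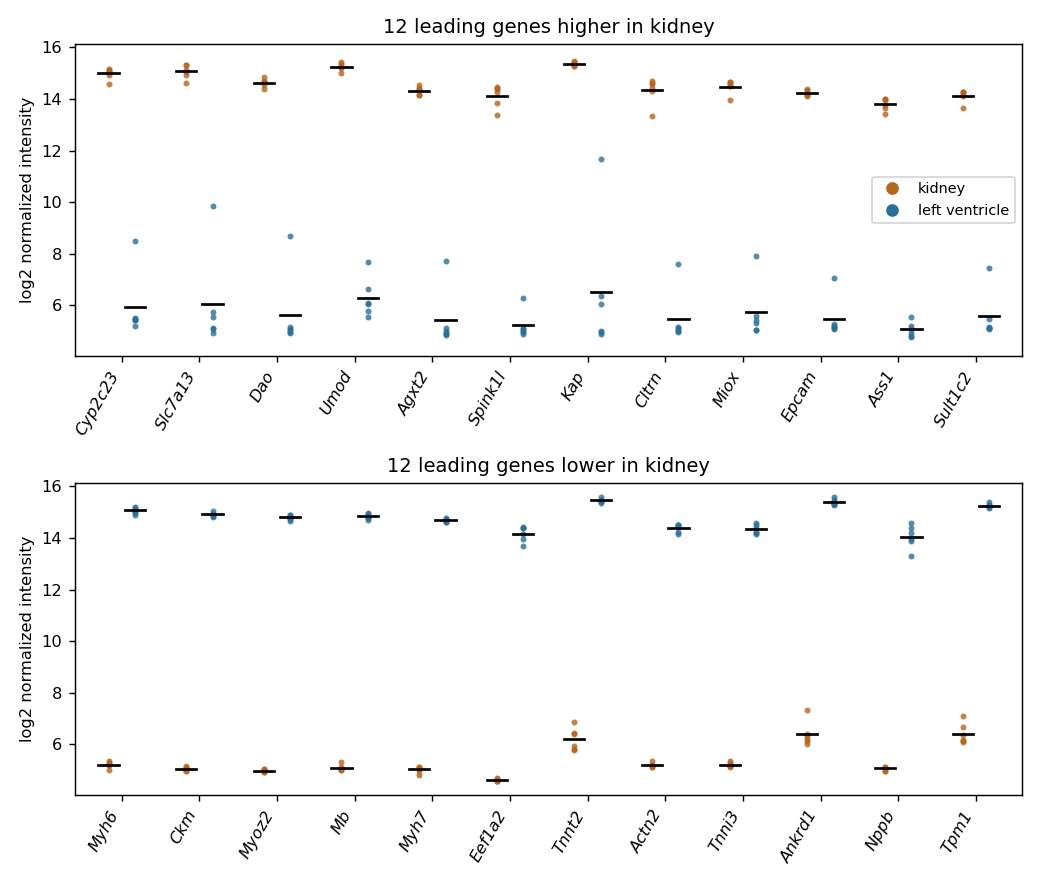
Log2 normalized intensity of the 12 leading genes higher in kidney (top) and the 12 leading genes lower in kidney (bottom) on each array, kidney in brown on the left and left ventricle in blue on the right of each pair, with bars at the means of 6 arrays. In the top panel 1 ventricular point, replicate 3, lies above the others for most genes and reaches 11.68 for Kap, and no gene of either panel overlaps between tissues.

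Promoter windows of 4 leading genes are shown because each holds a motif of a factor known for its tissue, and most leading genes held neither motif. HNF1 factors act in tubule epithelium, and MEF2 factors in muscle. The windows run from 250 bases before to 50 after the start, from RefSeq on GRCr8, and 11 of 12 leading genes in each direction had one. Capitals mark a match to the HNF1 half-site GTTAAT in the kidney genes and to the MEF2 motif (CTA, any 4 bases, TAG) in the cardiac gene, on either strand, and the motifs do not overlap one another. Of the leading kidney genes, 3 held the HNF1 half-site, in Kap (chr4:168408983-168409282, minus strand), Cltrn (chrX:34027075-34027374, minus strand) and Miox (chr7:122284410-122284709, plus strand). Of the leading cardiac genes, 1 held the MEF2 motif, Myoz2 (chr2:213852729-213853028, minus strand), which encodes a protein that ties calcineurin to the Z-disc. The HNF1 half-site was also in the window of 1 leading cardiac gene, Myh6.
Kap: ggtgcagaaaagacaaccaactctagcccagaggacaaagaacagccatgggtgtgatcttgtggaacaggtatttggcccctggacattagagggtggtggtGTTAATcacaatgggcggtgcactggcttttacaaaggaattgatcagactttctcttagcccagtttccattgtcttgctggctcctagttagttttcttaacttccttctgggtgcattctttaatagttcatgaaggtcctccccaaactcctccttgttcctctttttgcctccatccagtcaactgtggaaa
Cltrn: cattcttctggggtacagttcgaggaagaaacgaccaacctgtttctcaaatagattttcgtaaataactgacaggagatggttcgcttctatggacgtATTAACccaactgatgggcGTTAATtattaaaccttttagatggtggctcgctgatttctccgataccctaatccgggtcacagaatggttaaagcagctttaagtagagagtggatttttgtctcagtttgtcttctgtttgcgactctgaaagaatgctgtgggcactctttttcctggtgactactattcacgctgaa
Miox: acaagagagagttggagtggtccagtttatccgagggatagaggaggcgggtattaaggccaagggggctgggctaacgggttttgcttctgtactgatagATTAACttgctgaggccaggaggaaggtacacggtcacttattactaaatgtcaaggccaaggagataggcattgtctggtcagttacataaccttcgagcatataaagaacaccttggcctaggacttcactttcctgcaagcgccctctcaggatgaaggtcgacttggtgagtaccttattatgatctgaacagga
Myoz2: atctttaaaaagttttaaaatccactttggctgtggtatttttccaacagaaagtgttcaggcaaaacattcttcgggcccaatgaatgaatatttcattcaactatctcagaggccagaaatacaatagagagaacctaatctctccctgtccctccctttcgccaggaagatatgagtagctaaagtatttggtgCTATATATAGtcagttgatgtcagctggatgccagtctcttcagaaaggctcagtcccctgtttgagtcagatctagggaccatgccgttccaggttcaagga
The matches begin at positions -147 in Kap, -151 and -132 in Cltrn, -149 in Miox and -53 in Myoz2, counted from the start site. The half-site was in 14.23% of windows of genes over 16-fold higher in kidney, in 4.63% of windows of genes over 16-fold lower, in 4.76% of 6160 windows of measured genes and in 7.37% of all 27457 windows. The MEF2 motif was in 2.85%, 11.11%, 3.13% and 3.83% of the same sets. The CArG box, the site of serum response factor, was in 0.81%, 5.56%, 1.20% and 1.64%. A core promoter box, also searched, was in 15.04%, 19.44%, 7.56% and 14.26%, so it was more frequent in both 16-fold sets than in measured genes. The motif of the Gata4 family was in 8.54%, 13.89%, 6.53% and 11.27%. In genes detected on all 6 kidneys and no ventricle the half-site was in 6.6%, and in the reverse set in 6.06%. The MEF2 motif was in 3.23% and 10.1% of these sets, and the CArG box in 1.17% and 1.01%. These shares describe the letters of the windows, with no test, and a match is not a shown binding site.

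The contractile genes stood apart as a group. All 14 tested sarcomere genes were lower in kidney, with a median log2 difference of -8.45 against -0.03 over all tested probes. Of these, 7 were undetected on every kidney and were tested through their ventricular signal, so the filter favoured their difference. Actn2, the alpha-actinin of the Z-disc, read 5.11, 5.19 and 5.34 in kidney, against 14.14, 14.45 and 14.52 in left ventricle, at least 400-fold lower in kidney. Tnni3, cardiac troponin I, was at least 388-fold lower in kidney and Myoz2 at least 532-fold lower. The 7 tested heart muscle markers repeat probes of this list and, for Ryr2, of the calcium list below, so their count adds nothing. They had a mean level of 5.25 to 5.44 on the kidney arrays, against 13.51 to 13.76 on the ventricular arrays. Acta1, the skeletal alpha-actin that heart muscle also makes, was the 1 tested member of the skeletal muscle list and was at least 321-fold lower in kidney. In whole tissue, fewer cells of a type and less RNA per cell cannot be told apart.

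Genes of calcium handling and excitation were likewise lower in kidney, 12 of 12 tested of 15 on the array, with a median of -3.65. 5 of the 12 were undetected on all kidneys. Kcnip2, a subunit of the transient outward potassium channel, read 4.85, 5.02 and 5.11 in kidney, against 11.52, 12.18 and 12.59 in left ventricle, at least 82.3-fold lower in kidney. Ryr2, the calcium release channel, was at least 19-fold lower. Hrc and Casq2, which bind calcium in the sarcoplasmic reticulum, differed by -6.78 ± 0.13 and -4.90 ± 0.16, and Cacna1c, the L-type calcium channel, by -4.08 ± 0.13. These were detected on few kidneys, Hrc and Cacna1c on 1 of 6 and Casq2 on 4 of 6, so the differences run partly to background. Atp2a2, the calcium pump that refills the store and also serves most other cells, was well detected in both tissues. It read 11.50, 11.62 and 12.68 in kidney, against 15.71 on each ventricular array, where it was the brightest probe and so takes the top value that quantile normalization gives. Its log2 difference was -3.95 ± 0.17 (adjusted p = 3.73e-08). Kidney replicate 2 was the high kidney array for it.

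Natriuretic peptides and their receptors were lower in kidney for 4 of 5 tested genes of 7 on the array. Nppa, the precursor of atrial natriuretic peptide, read 5.39, 5.62 and 5.90 in kidney, against 12.40, 12.79 and 13.41 in left ventricle, a log2 difference of -7.19 ± 0.18 (adjusted p = 1.13e-09). Corin, the protease that cuts that precursor, differed by -3.53 ± 0.21. Nppa was detected on 1 of 6 kidneys and Corin on 2. Npr2, the receptor of C-type natriuretic peptide, was lower in kidney (-1.38 ± 0.11), a direction that turned to 0.54 without normalization between arrays and did not pass under median scaling (adjusted p = 0.274). Npr3, the clearance receptor, overlapped between tissues and did not pass, at -0.43 ± 0.19 (adjusted p = 0.0661), and its sign turned under median scaling (0.13). It passed without animal 2 (-0.55, adjusted p = 0.0352) and did not over the 3 animals (adjusted p = 0.211). Npr3 was detected on 6 of 6 kidneys and only 3 of 6 ventricles, against the direction of that difference. Its levels of 5.91 to 6.35 in kidney and 5.81 to 7.35 in left ventricle lay near the lowest signal among detected probes. All 5 tested cardiac transcription factors of 8 on the array were lower in kidney, 2 of them undetected on every kidney and tested through their ventricular signal. Gata4 read 4.91, 4.99 and 5.10 in kidney, against 8.81, 9.37 and 9.80 in left ventricle, at least 12.4-fold lower in kidney. Nkx2-5 was at least 11.1-fold lower. Irx4, a ventricular factor, differed by -4.15 ± 0.12, Gata6 by -3.29 ± 0.13, and Ankrd1, a stretch-responsive cofactor, by -8.996 ± 0.18. Gata6 was detected on all 6 kidneys and Irx4 on 1.

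Fatty acid use was mostly a ventricular pattern, with 12 of 15 tested genes lower in kidney, 1 higher and 2 that did not pass. The median was -1.77, and 37.5% of all tested probes were lower. The carnitine palmitoyltransferases, which admit fatty acids to mitochondria, split by isoform. Cpt1b, the muscle form, read 5.54, 6.16 and 7.58 in kidney, against 11.14, 11.76 and 11.95 in left ventricle, a log2 difference of -5.41 ± 0.30 (adjusted p = 2.45e-07), with detection on 3 of 6 kidneys. Cpt1a, the form of liver and kidney, read 11.05, 11.23 and 11.77 in kidney, against 10.06, 10.30 and 10.50 in left ventricle, 1.01 ± 0.15 (adjusted p = 0.000252). Cpt1a was the 1 gene of the list that was higher, and it is named after its value was seen. Lpl, which frees fatty acids from lipoproteins, differed by -4.08 ± 0.11, the fatty acid carriers Cd36 and Fabp3 by -3.74 ± 0.21 and -3.33 ± 0.12. Acadm, the medium-chain dehydrogenase, overlapped between tissues at -0.13 ± 0.11 and did not pass (adjusted p = 0.295), with the opposite sign under median scaling (0.04).

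The respiratory chain showed the same exchange of isoforms. Of 21 tested genes, 14 were lower in kidney, 2 higher and 5 did not pass, with a median of -0.96. Over all tested probes 73.6% were called, 37.5% as lower. The muscle forms of 2 cytochrome oxidase subunits were among the lower ones. Cox6a2 read 5.05, 5.15 and 5.38 in kidney, against 13.65, 13.83 and 13.99 in left ventricle, at least 271-fold lower in kidney. Cox8b, detected on 3 of 6 kidneys, differed by -8.36 ± 0.18. The 2 higher genes, named after their values were seen, were the forms of most other tissues. Cox8a read 13.82, 13.99 and 14.15 in kidney, against 11.89, 12.03 and 12.45 in left ventricle, 1.90 ± 0.12 (adjusted p = 6.55e-07). Cox6a1 differed by 0.52 ± 0.10 (adjusted p = 0.00127), which turned to -0.48 when arrays were centred on the probes detected on all 12 and to -0.82 on the authors' scores. Sdha, a subunit of complex II, overlapped and did not pass (-0.08 ± 0.11, adjusted p = 0.515), and its sign turned under median scaling (0.49).

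Genes of sugar metabolism differed in both directions. Of 20 tested, 8 were higher in kidney, 10 lower and 2 did not pass, beside 73.6% called over all tested probes. The largest differences higher in kidney were enzymes of gluconeogenesis, by which kidney and liver release glucose. Pck1, phosphoenolpyruvate carboxykinase, read 14.93, 15.17 and 15.36 in kidney, against 6.67, 7.57 and 9.45 in left ventricle, 7.46 ± 0.34 (adjusted p = 5.56e-08). Fbp1, fructose bisphosphatase, differed by 7.36 ± 0.25 and G6pc1, the catalytic subunit of glucose-6-phosphatase, by 7.22 ± 0.23. On ventricles, Fbp1 was detected on 4 of 6 arrays and G6pc1 on 1. Higher in kidney too were 3 glycolytic genes, named after their values were seen. Pklr, the pyruvate kinase of liver and red cells, was at least 5.86-fold higher, Eno1, the enolase of most tissues, differed by 2.60 ± 0.18 (adjusted p = 1.04e-06), and Pfkl, the liver phosphofructokinase, by 0.45 ± 0.18 (adjusted p = 0.041). Pfkl did not pass over the 3 animals (0.33, adjusted p = 0.234), without animal 3, 4 or 6 (0.41, 0.37 and 0.33) or with the animal left out as a term (adjusted p = 0.0858). The largest differences the other way were glycolytic. Pkm, pyruvate kinase of muscle and most tissues, read 5.19, 5.48 and 5.93 in kidney, against 10.84, 11.26 and 11.47 in left ventricle, -5.68 ± 0.16 (adjusted p = 2.05e-09). Pgam2 and Eno3, the muscle forms of phosphoglycerate mutase and enolase, differed by -5.51 ± 0.11 and -4.53 ± 0.18. On kidneys, Pkm was detected on 1 of 6 arrays and both others on 4. In the creatine system, the synthesis genes Gamt and Gatm were higher in kidney and the muscle kinase Ckm was lower. Gamt, the second enzyme of creatine synthesis, read 11.08, 11.40 and 11.53 in kidney, against 9.24, 9.46 and 9.65 in left ventricle, 1.86 ± 0.12 (adjusted p = 6.1e-07). Gatm read 8.47, 12.50 and 12.71 in kidney, with its lowest value on replicate 2, against 5.09, 5.57 and 6.27 in left ventricle. It was at least 40.2-fold higher in kidney (6.17 ± 0.52, adjusted p = 4.28e-06), and the log2 difference was 6.86 without animal 2. Slc6a8, the creatine transporter, overlapped and did not pass (0.19 ± 0.13, adjusted p = 0.213), with a sign that turned when arrays were centred on the probes detected on all 12 (-0.01). Ckb, the brain-type kinase, did not pass over 6 animals (-0.42 ± 0.24, adjusted p = 0.151). It passed as lower over the 3 animals (-0.91, adjusted p = 0.00228). Under median scaling 4 of the 5 tested creatine genes were called higher in kidney, Slc6a8 and Ckb (0.49) among them, and 1 lower.

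Along the nephron, proximal tubule genes were higher in kidney throughout. All 19 tested transport genes of 21 on the array were higher, with a median of 6.13. 11 of them were undetected on every ventricle and were tested through their kidney signal. Without the filter on dim probes, 20 of 21 passed. Slc34a1, the sodium phosphate cotransporter of the brush border, read 12.59, 12.87 and 13.46 in kidney, against 5.05, 5.17 and 5.69 in left ventricle, at least 85.1-fold higher in kidney. Cubn, a receptor for filtered protein, was at least 38.5-fold higher, and the amino acid transporters Slc7a7 and Slc7a9 at least 39.9-fold and 45.7-fold higher. Slc13a3, a dicarboxylate transporter, differed by 7.68 ± 0.34, and by 8.11 without animal 3. Of 20 proximal tubule metabolic genes, 19 were higher and 1 lower, with a median of 4.61, and 4 were undetected on every ventricle. Hao2, a peroxisomal hydroxy acid oxidase, differed by 8.26 ± 0.36, Aadat, an aminotransferase of kynurenine breakdown, by 7.76 ± 0.28. On ventricles, Slc13a3 and Hao2 were detected on 1 of 6 arrays and Aadat on 3. Cyp24a1, the hydroxylase that degrades vitamin D, was at least 61.6-fold higher. The 1 lower gene was Gda, guanine deaminase, at -0.84 ± 0.12 (adjusted p = 0.000198), named after its value was seen. It did not pass under median scaling (-0.07) and turned to 0.65 without normalization between arrays.

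Loop and distal tubule genes were higher in kidney for 10 of 11 tested of 14 on the array, with a median of 4.98, and 5 were undetected on every ventricle and tested through their kidney signal. Cldn10, a tight junction protein, read 12.62, 12.94 and 13.45 in kidney, against 4.49, 4.55 and 4.72 in left ventricle, at least 90.8-fold higher in kidney. Kcnj1, the ROMK potassium channel, was at least 25.8-fold higher, Egf, the precursor of epidermal growth factor made in the distal nephron, differed by 7.45 ± 0.24, and Calb1, a calcium buffer, by 6.71 ± 0.35. Egf was detected on 3 of 6 ventricles and Calb1 on 2. Slc12a3, the thiazide-sensitive cotransporter, read 8.94, 9.63 and 12.15 in kidney with replicate 2 as the highest, against 5.04, 5.45 and 5.89 in left ventricle. It was at least 11-fold higher in kidney, and its log2 difference was 4.49 ± 0.40, or 4.04 without animal 2. Wnk1, a kinase that regulates that cotransporter, overlapped and did not pass (0.17 ± 0.14, adjusted p = 0.303), but passed over the 3 animals (0.43, adjusted p = 0.0291). Collecting duct genes were higher for 19 of 20 tested of 22, with a median of 3.72, and 13 of them were undetected on every ventricle. Scnn1a, a subunit of the epithelial sodium channel, read 10.46, 10.54 and 11.11 in kidney, against 4.52, 4.55 and 4.67 in left ventricle, at least 17.3-fold higher in kidney. Slc26a4, pendrin of intercalated cells, was at least 19.6-fold higher, and the epithelial keratins Krt8 and Krt7 at least 43.6-fold and 28.5-fold higher. Atp6v1g3, a kidney subunit of the proton pump detected on 2 of 6 ventricles, differed by 6.25 ± 0.22. Aqp2, the water channel under vasopressin, ranged widely among kidneys, at 9.42, 10.15 and 11.92, against 5.17, 5.42 and 5.83 in left ventricle, at least 16.2-fold higher in kidney. Slc4a1, the anion exchanger that intercalated cells share with red cells, overlapped and did not pass (0.52 ± 0.31, adjusted p = 0.148; over the 3 animals 0.48, adjusted p = 0.0363). The 4 tested kidney tubule markers, Umod, Slc34a1, Slc12a3 and Aqp2, are members of these lists, 3 of them undetected on every ventricle, and had a mean level of 11.75 to 12.72 on the kidney arrays, against 5.30 to 6.15 on the ventricular arrays.

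Glomerular genes did not all follow the tubule. Of 5 tested of 7 on the array, 2 were higher in kidney, 2 lower and 1 did not pass, beside 73.6% called over all tested probes. Under median scaling 3 were higher and 1 lower, so the split depends on the scaling. Nphs1, nephrin of the podocyte slit diaphragm, read 9.08, 9.77 and 10.23 in kidney, against 5.16, 5.40 and 5.59 in left ventricle, at least 9.44-fold higher in kidney. Ptpro, a podocyte receptor phosphatase, differed by 2.36 ± 0.14 (adjusted p = 3.89e-07). Wt1, a factor of podocytes and of the covering layer of the heart, read 5.44, 5.88 and 6.23 in kidney, against 6.86, 7.27 and 7.66 in left ventricle, -1.37 ± 0.15 (adjusted p = 2.28e-05), and turned to 0.20 without normalization between arrays. Clic5, a chloride channel family protein, was lower in kidney (-1.23 ± 0.14), did not pass under median scaling (-0.06) and turned to 0.67 without normalization between arrays. Podxl, podocalyxin, which endothelium also carries, did not pass (-0.35 ± 0.19, adjusted p = 0.125). It passed as higher under median scaling (0.48) and as lower over the 3 animals (-0.52, adjusted p = 0.0218). Among 5 tested kidney transcription factors of 9, Hnf4a, Lhx1 and Hoxb7 were higher in kidney. Hoxb7, a factor of the ureteric bud, read 12.21, 12.40 and 12.76 in kidney, against 5.34, 5.91 and 7.29 in left ventricle, 6.43 ± 0.19 (adjusted p = 3.31e-09), with detection on 1 of 6 ventricles. Lhx1, which is needed to form nephrons, was at least 9.37-fold higher in kidney, and Hnf4a, a proximal tubule and liver factor, at least 1.76-fold higher. Esrrg, an orphan receptor of oxidative tissues, was lower in kidney (-1.24 ± 0.23, adjusted p = 0.00103), did not pass under median scaling (-0.04) and turned to 0.68 without normalization between arrays. Emx1 overlapped and did not pass (0.50 ± 0.29, adjusted p = 0.146).

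The renin, angiotensin and aldosterone genes all differed, 6 of 8 tested higher in kidney and 2 lower, of 11 on the array, beside 73.6% called over all tested probes. Agt, angiotensinogen, the substrate of renin, read 10.11, 10.86 and 11.27 in kidney, against 5.59, 6.16 and 7.23 in left ventricle, without overlap, 4.55 ± 0.29 (adjusted p = 5.97e-07). Agt and Enpep were detected on 2 of 6 ventricles and Agtr1b on 1. Agtr1a, the main angiotensin II receptor of rat vessels and tubules, read 9.79, 10.88 and 11.03 in kidney, against 6.40, 7.52 and 7.89 in left ventricle, 3.33 ± 0.26 (adjusted p = 2.85e-06). The tissues did not overlap for it, although kidney replicate 2 was the low kidney. Agtr1b, the second rat copy of that receptor, differed by 0.66 ± 0.13 (adjusted p = 0.00151), and the 2 probes could share signal since the copies are nearly identical. Atp6ap2, the prorenin receptor, read 13.23, 13.28 and 13.38 in kidney, against 11.06, 11.10 and 11.27 in left ventricle, 2.16 ± 0.10 (adjusted p = 5.94e-08). Sgk1, the kinase that aldosterone induces, differed by 1.49 ± 0.11 (adjusted p = 2.18e-06). Enpep, aminopeptidase A, which trims angiotensin II, read 5.87, 7.87 and 8.34 in kidney with replicate 2 as the lowest, against 5.64, 6.18 and 6.93 in left ventricle. The tissues overlapped for it, and the difference was 1.34 ± 0.35 (adjusted p = 0.00651), or 1.79 without animal 2. Nr3c2, the mineralocorticoid receptor, was lower in kidney. It read 6.60, 6.85 and 7.02 there, against 8.18, 8.43 and 8.60 in left ventricle, without overlap, -1.56 ± 0.13 (adjusted p = 3.94e-06), and turned to 0.31 without normalization between arrays. Mas1, the receptor of angiotensin 1-7, was lower in kidney (-0.53 ± 0.16, adjusted p = 0.0149) with overlap, did not pass under median scaling (-0.05) and turned to 0.68 without normalization between arrays.

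The sodium pump is the target of marinobufagenin, and FXYD proteins and beta subunits are given here. All 11 tested genes differed, 7 higher in kidney and 4 lower, beside 73.6% called over all tested probes. Fxyd4 and Atp1a4 were undetected on every ventricle and were tested through their kidney signal. Over the 3 animals 5 were higher and 4 lower. Fxyd2, the gamma subunit of the kidney pump, read 13.67, 14.39 and 14.49 in kidney, against 7.40, 7.61 and 7.79 in left ventricle, 6.68 ± 0.13 (adjusted p = 3.34e-10). The second Fxyd2 probe gave 7.95. Fxyd1, phospholemman, the partner of the pump in heart and skeletal muscle, read 6.21, 6.48 and 7.03 in kidney, against 10.73, 10.88 and 11.76 in left ventricle, -4.48 ± 0.19 (adjusted p = 3.47e-08). These 2 genes were thus at opposite ends, with no overlap for either.

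Fxyd4, which raises the sodium affinity of the pump in collecting duct, ranged widely among kidneys, at 8.83, 9.85 and 11.05, against 4.71, 4.86 and 4.98 in left ventricle. It was at least 10.3-fold higher in kidney (5.03 ± 0.32, adjusted p = 6.61e-07). Fxyd6, a modulator found mostly in brain and some epithelia, read 10.85, 11.13 and 11.40 in kidney, against 7.88, 8.46 and 8.49 in left ventricle, 2.78 ± 0.13 (adjusted p = 6.2e-08). Fxyd5, dysadherin, overlapped at 7.02, 7.36 and 8.39 in kidney and 5.92, 6.35 and 7.56 in left ventricle, 0.87 ± 0.25 (adjusted p = 0.00995), and did not pass over the 3 animals (0.79, adjusted p = 0.0777). Fxyd3, a modulator known from stomach and colon, read 5.38, 5.83 and 6.46 in kidney, against 7.01, 7.50 and 8.13 in left ventricle, -1.67 ± 0.18 (adjusted p = 2.9e-05). Fxyd7, mainly a brain gene, read 5.20, 5.69 and 5.93 in kidney and 5.73, 6.43 and 7.18 in left ventricle. It was lower in 6 of 6 animals although the tissues overlapped, -0.79 ± 0.20 (adjusted p = 0.00589), turning to 0.33 without normalization between arrays. These levels lay near the lowest signal among detected probes, 5.67 to 5.85 on kidney arrays and 6.385 to 6.73 on ventricular arrays. The part of that gap between tissues in the Fxyd7 difference was not tested.

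Among the beta subunits, which bring the pump to the membrane, Atp1b1 and Atp1b3 were higher and Atp1b2 lower in kidney. Atp1b1 read 14.79, 14.91 and 15.06 in kidney, against 12.83, 12.97 and 13.24 in left ventricle, 1.92 ± 0.11 (adjusted p = 3.85e-07). Atp1b2, known from brain and muscle, read 7.64, 7.82 and 8.60 in kidney, against 9.21, 9.81 and 10.01 in left ventricle, -1.76 ± 0.17 (adjusted p = 9.47e-06), and turned to 0.13 without normalization between arrays. Atp1b3 read 12.08, 12.34 and 12.50 in kidney, against 11.76, 11.94 and 12.08 in left ventricle, 0.39 ± 0.12 (adjusted p = 0.0131). It did not pass when arrays were centred on the probes detected on all 12, nor over the 3 animals (0.23, adjusted p = 0.147). Atp1a4, the alpha subunit known from sperm, was a dim probe in kidney at 6.77, 6.97 and 7.48 and undetected in left ventricle at 4.96, 5.06 and 5.39, at least 1.47-fold higher in kidney.

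**Figure D4:**
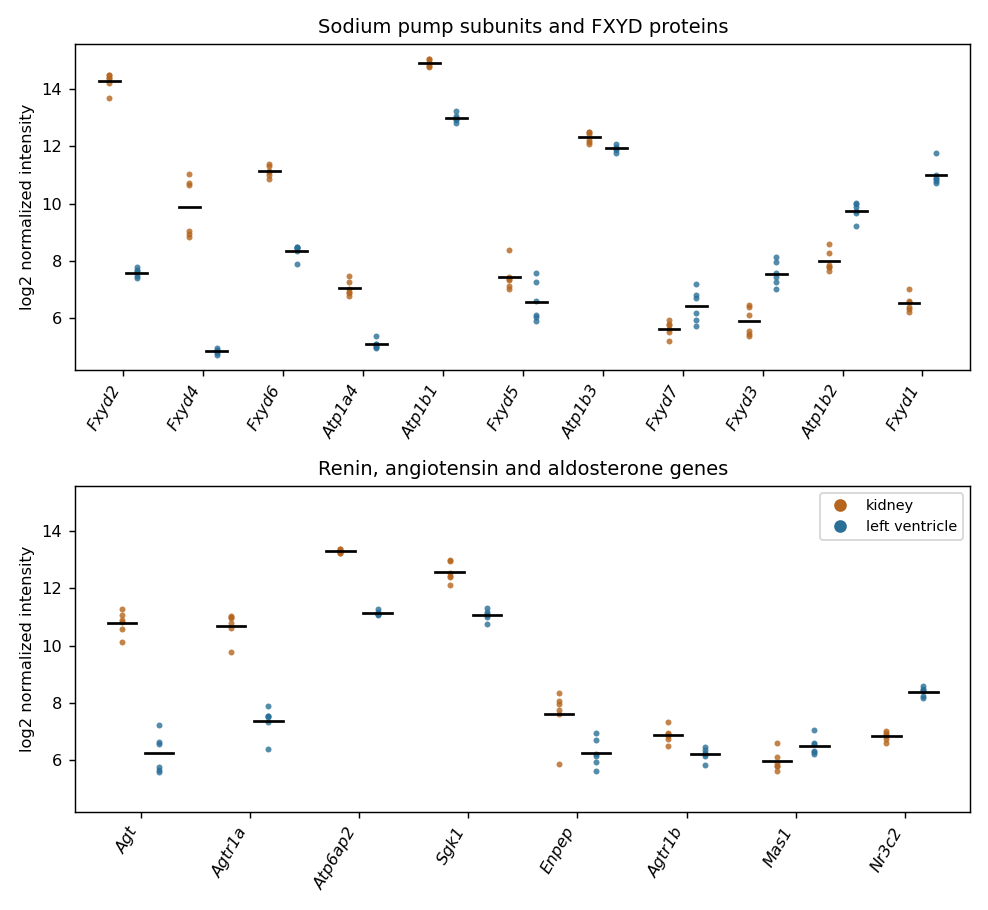
Log2 normalized intensity on each array of the 11 tested sodium pump and FXYD genes (top) and the 8 tested renin, angiotensin and aldosterone genes (bottom), kidney in brown on the left and left ventricle in blue on the right of each pair, with bars at the means of 6 arrays. Fxyd2 lies far higher in kidney and Fxyd1 far lower, and Fxyd5, Fxyd7, Enpep and Mas1 overlap between tissues.

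Genes of TGF-beta signalling, a pathway that drives fibrosis, differed in both directions. Of 20 tested of 26 on the array, 4 were higher in kidney, 7 lower and 9 did not pass, a called share below the background of 73.6%, with a median of -0.06. Under median scaling the counts were 13 higher and 3 lower. Tgfb2 read 6.91, 7.16 and 7.46 in kidney, against 8.85, 9.16 and 10.06 in left ventricle, without overlap, -2.17 ± 0.20 (adjusted p = 7.47e-06). Tgfb3 read 6.05, 6.30 and 6.73 in kidney, against 7.67, 7.91 and 8.10 in left ventricle, -1.57 ± 0.13 (adjusted p = 4.87e-06), and turned to 0.17 without normalization between arrays. Tgfb1 overlapped but was lower in kidney in 6 of 6 animals, -0.85 ± 0.16 (adjusted p = 0.000948), with 0.27 under median scaling. Ltbp4, which holds the latent ligand in matrix, differed by -1.71 ± 0.11 (adjusted p = 8.1e-07). The accessory receptor Tgfbr3 was lower in kidney (-0.84 ± 0.27), with 0.47 without normalization between arrays and no pass without animal 2 (-0.67) or animal 3 (-0.76), and the BMP receptor Bmpr2 differed by -1.09 ± 0.24, with 0.04 under median scaling. Fli1, an endothelial and blood cell factor that represses collagen, was lower in kidney (-0.997 ± 0.18), with 0.18 under median scaling.

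The 4 higher genes of the pathway included 2 inhibitors. Fst, follistatin, which binds activins, read 9.16, 9.77 and 10.24 in kidney, against 5.40, 5.45 and 5.67 in left ventricle, at least 9.24-fold higher in kidney (4.21 ± 0.20, adjusted p = 8.99e-08). Smad6, an inhibitory Smad, differed by 0.70 ± 0.15 (adjusted p = 0.00235). Tgif1, a repressor of Smad targets, was at least 2.34-fold higher in kidney, and the ligand Bmp4 higher by 0.92 ± 0.19 (adjusted p = 0.00206). The 9 genes that did not pass lay between -0.32 for Smad7 and 0.31 for Bmpr1a, and all overlapped between tissues. They were Smad1 (0.17), Smad2 (0.20), Smad4 (-0.14), Smad7, Ltbp1 (-0.03), Ltbp2 (0.29), Bmpr1a, Ccn2 (0.26) and Tgfbi (-0.09). Of these, Smad4, Smad7, Ltbp1 and Tgfbi changed sign under median scaling, Ltbp1, Ccn2 and Tgfbi when arrays were centred on the probes detected on all 12, and Smad7 and Ccn2 on the authors' scores too. Ltbp1, Ltbp2 and Tgfbi changed sign with 1 animal left out.

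Matrix genes were more often lower in kidney, 18 of 29 tested of 33 on the array, with 6 higher and 5 that did not pass. The median was -1.07, and 37.5% of all tested probes were lower. Under median scaling the counts were 10 higher and 12 lower. Lum, lumican, a proteoglycan of collagen fibrils, read 6.33, 6.54 and 7.47 in kidney, against 12.21, 12.41 and 13.08 in left ventricle, -5.85 ± 0.18 (adjusted p = 4.46e-09). Col14a1, a collagen on the fibril surface, differed by -3.97 ± 0.18, Col15a1, a basement membrane collagen of muscle, by -3.47 ± 0.15, and Col6a1 by -2.67 ± 0.14. Spp1, osteopontin, which tubules secrete, read 13.68, 14.06 and 14.40 in kidney, against 8.41, 8.85 and 9.01 in left ventricle, 5.31 ± 0.16 (adjusted p = 3.99e-09). Col18a1, the parent of endostatin, was higher by 2.68 ± 0.25. Of 6 tested fibroblast markers, 4 were lower in kidney and 2 did not pass. Dcn, Lum, Col1a1 and Col1a2 belong to both lists, so the 2 counts share probes and the markers add little to the matrix genes. The markers had a mean level of 9.63 to 9.98 on the kidney arrays, against 11.01 to 11.75 on the ventricular arrays. Under median scaling 2 of the 6 were higher and 3 lower, and over the 3 animals 0 were higher and 3 lower. The part of cell content in the matrix genes was not tested.

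Of 14 tested genes often used as references, 5 were higher in kidney, 3 lower and 6 did not pass, beside 73.6% called over all tested probes, against 8 higher and 1 lower under median scaling, with a median of 0.0041. Hprt1 read 10.53, 11.49 and 11.67 in kidney, against 13.38, 13.65 and 13.79 in left ventricle, -2.31 ± 0.17 (adjusted p = 1.65e-06). Gapdh read 13.36, 13.65 and 14.18 in kidney, against 13.39, 13.62 and 13.80 in left ventricle, and did not pass (0.06 ± 0.13, adjusted p = 0.674). Its sign turned when arrays were centred on the probes detected on all 12 (-0.69), on the authors' scores (-0.78), with array weights and without animal 2. Ribosomal protein genes were higher for 10 of 24, lower for 4 and without a call for 10, with a median of 0.19, and 14 higher against 1 lower under median scaling.

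Single markers of blood, immune and fat cells differed, in both directions. Hbb read 10.72, 12.23 and 15.31 in kidney, against 14.25, 14.54 and 14.77 in left ventricle, overlapping only through kidney replicate 1, -2.21 ± 0.53 (adjusted p = 0.00427), and the adjusted p was 0.124 over the 3 animals, which include that kidney. Hba-a1, an alpha globin, differed by -1.72 ± 0.39 and did not pass over the 3 animals (adjusted p = 0.0933), and Cfd, the adipocyte factor adipsin, by -2.68 ± 0.42. Mrc1, a receptor of tissue macrophages, read 5.08, 5.86 and 6.28 in kidney, against 7.38, 8.47 and 8.998 in left ventricle, -2.51 ± 0.11 (adjusted p = 5.81e-08). Cd3g, a T cell receptor chain, was at least 1.2-fold higher in kidney, and 3 of 4 tested T cell markers were higher, 3 of the 4 being undetected on every ventricle. All 4 were higher over the 3 animals. Myl7 was undetected on all kidneys and lower there (fitted log2 difference -3.50 ± 0.73, adjusted p = 0.00183), with a fitted -2.55 without animal 6. Its bound of at least 8.9-fold rests on a ventricular mean that includes the high replicate 6, and it does not hold without that array. Endothelial markers were lower for 2 of 4, with 2 that did not pass, whereas under median scaling 2 were higher and 1 lower. Markers of macrophages gave 2 higher and 1 lower of 4, of fat 1 higher and 1 lower of 3, of red cells 2 lower of 3, of adrenal cortex 1 higher of 3 and of podocytes 1 higher of 2. Over the 3 animals these counts were 0 higher and 2 lower for macrophages and 1 higher and 1 lower for fat. Red cells gave 1 higher and 0 lower there, adrenal cortex 0 higher and 1 lower, and podocytes 1 higher and 1 lower. These 3 animals include left ventricle replicate 4, the highest ventricle for the adrenal cortex markers Hsd3b1 and Cyp11b1. Atrial markers were lower for 2 of 2, and the single tested smooth muscle and B cell markers did not pass. Under median scaling the smooth muscle marker (1.31) and the B cell marker (0.46) passed as higher. Counts there were 3 higher and 1 lower for macrophages, 2 and 1 for fat and 1 and 2 for red cells. For T cells they were 4 and 0, for podocytes 2 and 0 and for adrenal cortex 1 and 0.

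**Figure D5:**
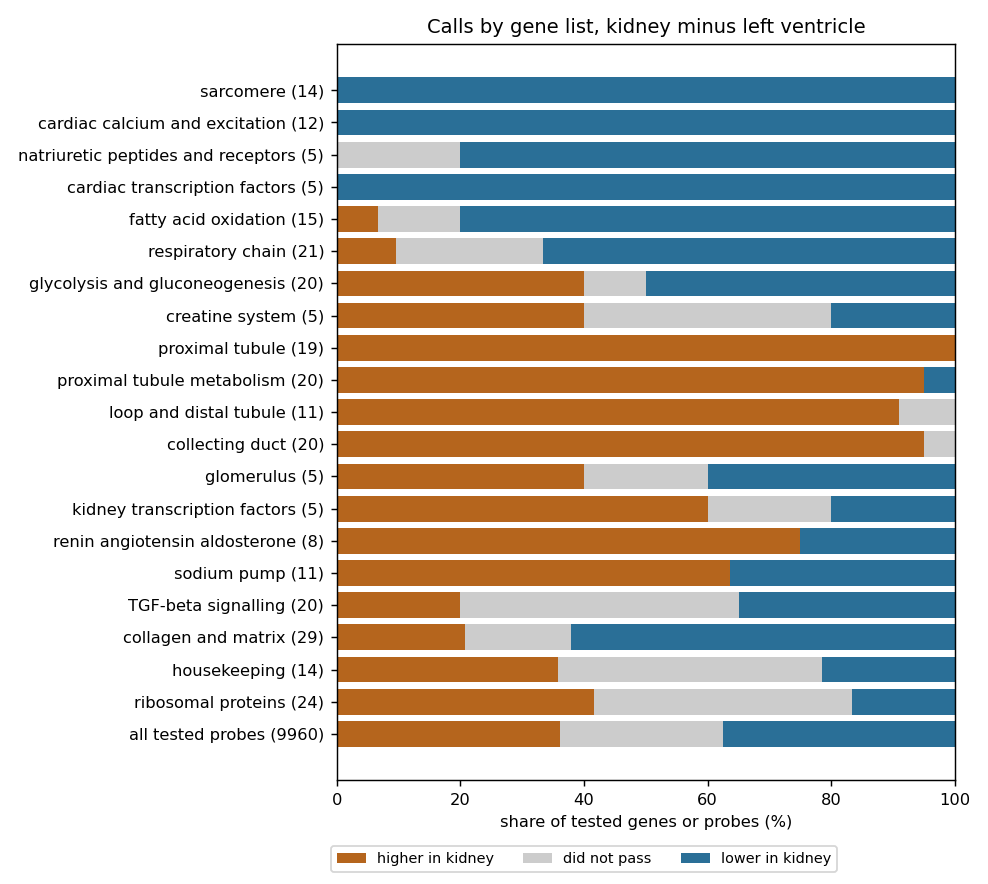
Share of tested genes of each list that were higher in kidney (brown), did not pass (grey) or were lower in kidney (blue), with the number tested in brackets and all 9960 tested probes in the bottom bar. Proximal tubule transport genes are all higher in kidney, sarcomere genes all lower, and 9 of 20 TGF-beta signalling genes did not pass.

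The tissue contrast was measured again in the 6 low-salt rats given the antibody, which share no array with the control rats. Of 9849 probes tested there, 3684 were higher and 3919 lower in kidney, 77.2% in either direction. Among 9491 probes tested in both, 7016 were called in control rats, and 6480 of these, 92.4%, were called the same way in antibody rats, with 2 called the opposite way. Those 6480 made up 88.2% of the calls of the antibody rats. All 3974 probes called over 2-fold in control rats had the same direction in antibody rats, and 3957 passed there. The log2 differences of the antibody and control rats had a Pearson correlation of 0.987 across probes, which is a description over probes that are not independent. The median absolute gap between them was 0.19.

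Single genes are given side by side. Kap differed by 9.83 in antibody rats and 8.86 in control rats, where left ventricle replicate 3 stood apart. Myh6 differed by -9.60 in antibody rats and -9.85 in control rats. Fxyd2 gave 6.96 in antibody rats and 6.68 in control rats, and Fxyd1 gave -4.27 in antibody rats and -4.48 in control rats. Agtr1b was -0.01 in antibody rats, against 0.66 in control rats. A limma test of the difference itself, antibody minus control rats in the kidney minus ventricle contrast, called 0 of 11208 probes (0%), with 874 below an unadjusted p of 0.05 and a smallest adjusted p of 0.34. A p that misses the threshold does not show that the contrasts are equal.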

How the data were processed

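RNA of 6 animals, from kidney and left ventricle, was hybridised to 12 Illumina bead arrays of 1 colour. Per the labels' protocols, an oligo-dT primer and in vitro transcription turned total RNA into biotin-labelled cRNA. The submitters' processing notes name GenomeStudio 2011.1. The deposited table holds linear probe intensities without normalization between arrays, and each deposited intensity has a detection p-value. A second deposited table holds the authors' scores, which were within 0.00533 of the z-score of log10 intensity recomputed within each array. Chip positions are not given in the sources used here, and no chip was fitted as a block.

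Intensities were background-corrected from their detection p-values (normexp, offset 16), quantile normalized and put on the log2 scale by the neqc function (limma 3.58.1, R 4.3.3). Probes detected (p below 0.05) on 6 or more of the 12 arrays were tested with lmFit and eBayes, with the animal as a term. Benjamini-Hochberg adjustment covered all 9960 tested probes, and the p-values rest on the spread between these animals. Both tissues came from the same animals. The tissues' deviations from their means correlated at -0.0027 to 0.284 within an animal, and 4 of 6 kidneys correlated best with their own ventricle. The number of arrays limits the precision.

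The platform annotation named 13793 of 22523 probes with 1 gene symbol, none with several and 8730 with none; 13752 matched RefSeq (GRCr8) by gene ID. The named genes are the 12 largest differences in each direction among called probes with 1 sign in 6 animals and detected on all 6 arrays of the brighter tissue, 1 probe a gene, and members of gene lists by their probe with the highest mean. Up to 6 members a list are named, by size and with members that did not pass, and the sodium pump, TGF-beta and renin lists in full. Members and lists were chosen with earlier results of these data known. Several probes of 1 gene had different calls only for Rps9. Array measures were compared by exact sign-change permutation tests. Alternatives covered background, scaling, filter, animal term, weights, variance trend, arrays in the fit and leaving out animals.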

Additional observations from a re-analysis of the deposited data

Results flagged for a closer look

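For each gene named in the text and each tissue, the highest or lowest of the 6 arrays was set against the rest, and a value was picked out when its gap to the nearest array was too large a share of the whole range by Dixon's 95% critical value for 6 values. Chance picks out about 1 in 20 such groups. Here 53 of 296 were picked out, 25 of them by kidney replicate 2 and 16 by left ventricle replicate 3. All values are log2 normalized intensities, with the range of the other 5 arrays of that tissue after each.

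Kidney replicate 2 was low for Cyp2c23 (14.59 against 14.94 to 15.15), Cltrn (13.34 against 14.32 to 14.71), Miox (13.97 against 14.50 to 14.66), Sult1c2 (13.64 against 14.12 to 14.28), Cd36 (8.33 against 9.51 to 10.01), Sdha (12.18 against 12.70 to 12.90), Fbp1 (13.67 against 14.27 to 14.50), Gatm (8.47 against 12.15 to 12.71), Hao2 (14.12 against 14.80 to 15.00), Aadat (13.72 against 14.46 to 14.89), Hnf4a (6.37 against 7.26 to 7.77), Agtr1a (9.79 against 10.60 to 11.03), Enpep (5.87 against 7.62 to 8.34) and Fxyd2 (13.67 against 14.21 to 14.49). It was high for Ankrd1 (7.32 against 6.00 to 6.39), Atp2a2 (12.68 against 11.50 to 11.66), Acadm (14.22 against 13.78 to 13.94), Ckb (12.23 against 10.35 to 10.94), Slc12a3 (12.15 against 8.94 to 10.03), Podxl (12.12 against 11.02 to 11.31), Emx1 (8.46 against 7.15 to 7.51), Fxyd5 (8.40 against 7.02 to 7.44), Smad4 (11.87 against 11.51 to 11.61), Ltbp2 (8.26 against 6.85 to 7.20) and Acta1 (5.63 against 5.17 to 5.34).

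Left ventricle replicate 3 was high for Cyp2c23 (8.48 against 5.20 to 5.51), Slc7a13 (9.86 against 4.93 to 5.74), Dao (8.71 against 4.92 to 5.16), Agxt2 (7.71 against 4.84 to 5.14), Spink1l (6.28 against 4.91 to 5.13), Kap (11.68 against 4.91 to 6.38), Cltrn (7.61 against 4.98 to 5.17), Miox (7.90 against 5.04 to 5.60), Epcam (7.06 against 5.10 to 5.29), Sult1c2 (7.45 against 5.10 to 5.47), Slc13a3 (7.34 against 4.95 to 5.48), Hao2 (8.71 against 5.70 to 6.43), Cyp24a1 (6.20 against 4.87 to 5.15), Aadat (8.38 against 6.22 to 6.94), Cldn10 (4.72 against 4.49 to 4.56) and Hoxb7 (7.29 against 5.34 to 6.07). All of these but Hoxb7 belong to the tubule lists or to the 12 leading kidney genes.

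In the other kidneys the values picked out were Mb on replicate 4 (high, 5.31 against 5.01 to 5.12), Irx4 on replicate 3 (high, 5.78 against 5.16 to 5.36), Scnn1a on replicate 3 (high, 11.11 against 10.46 to 10.56), Krt7 on replicate 6 (high, 11.52 against 11.27 to 11.31), Lum on replicate 6 (high, 7.47 against 6.33 to 6.62) and Hbb on replicate 1 (high, 15.31 against 10.72 to 12.41). In the other ventricles they were Clic5 on replicate 1 (high, 10.15 against 9.24 to 9.48), Atp1a4 on replicate 2 (high, 5.39 against 4.96 to 5.11), Fxyd1 on replicate 1 (high, 11.76 against 10.73 to 10.99), Fxyd6 on replicate 5 (low, 7.88 against 8.34 to 8.49), Fli1 on replicate 1 (low, 8.57 against 9.50 to 9.88) and Myl7 on replicate 6 (high, 13.64 against 6.97 to 8.67). Of 8 sets of array measures, 1 was picked out. The median log2 intensity of undetected probes was 8.00 on kidney replicate 1, against 7.51 to 7.69 on the other kidneys.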

How the results depend on the processing

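Counts of probes higher and lower in kidney stayed within 1.5 times of 3593 and 3736 with the animal left out as a term (no replicate block, 3524 and 3694), without background correction, with normalization over 48 arrays, on the authors' scores (4726 and 2801), without the filter on dim probes, with array weights, with a variance trend and with all 48 arrays in the fit. Leaving out each animal gave 3352 to 3689 higher and 3485 to 3853 lower. Median scaling gave 6498 higher and 1418 lower, and no normalization between arrays 8286 and 607. Keeping only probes detected at p below 0.01 on every array gave 1428 higher and 2446 lower of 5134 tested. That filter thus moved the split as well as the number tested. In the antibody rats median scaling gave 6281 and 1476, and leaving out each animal 3534 to 3630 and 3770 to 3871. The cause of these shifts was not tested. The tissue difference between antibody and control rats had 0 calls under median scaling and with each animal left out. The share of signal in the brightest probes differed by -1.98 percentage points for 10 probes and by -4.54 for 100 probes of the deposited intensities, in place of -8.94. Leaving out each animal, the detected-probe difference was 2424.8 to 2760.2, the 95th percentile difference 1.41 to 1.65, the brightest-probe share -9.19 to -8.426 and the undetected-probe difference 0.32 to 0.41.

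These named genes changed sign, and the cause was not tested. Under median scaling the log2 differences were Npr3 0.13, Acadm 0.035, Sdha 0.49, Ckb 0.49, Podxl 0.48, Tgfb1 0.27, Smad4 0.67, Smad7 0.80, Ltbp1 1.16, Bmpr2 0.039, Tgfbi 1.06 and Fli1 0.18. With arrays centred on the probes detected on all 12 they were Cox6a1 -0.48, Gapdh -0.69, Slc6a8 -0.012, Ltbp1 0.18, Ccn2 -0.20 and Tgfbi 0.078. Without normalization between arrays they were Npr2 0.54, Npr3 0.85, Acadm 0.76, Sdha 1.21, Ckb 1.22, Gda 0.65, Podxl 1.21, Wt1 0.20, Clic5 0.67, Esrrg 0.68, Nr3c2 0.31, Mas1 0.68, Atp1b2 0.13, Fxyd7 0.33, Tgfb1 0.995, Tgfb3 0.17, Tgfbr3 0.47, Smad4 1.40, Smad7 1.53, Ltbp1 1.89, Bmpr2 0.77, Tgfbi 1.79 and Fli1 0.91. On the authors' scores they were Cox6a1 -0.82, Gapdh -0.78, Smad7 0.12, Ltbp1 0.35, Ccn2 -0.29 and Tgfbi 0.23. Array weights gave Gapdh -0.011, and the 3 animals left without animals 2, 3 and 6, an alternative chosen after seeing the data, gave Gapdh -0.021. With each animal left out, Ltbp1 lay between -0.12 and 0.11, Gapdh lay between -0.035 and 0.12, Ltbp2 lay between -0.016 and 0.56 and Tgfbi lay between -0.20 and 0.10. Over the 3 animals, Atp1b3, Fxyd5, Hba-a1, Hbb and Pfkl no longer passed.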

Other observations

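Animal 2 stood apart in immediate early genes of its kidney, and 1 of these was also high in its ventricle. Atf3, a stress-induced transcription factor, read 8.34 in kidney replicate 2, against 6.11 to 6.38 in the other 5 kidneys, and 8.19 in left ventricle replicate 2, against 5.48 to 6.72 in the other 5 ventricles. Junb read 12.66 in that kidney, against 9.79 to 10.63 in the other kidneys, and 11.14 in that ventricle, within the range of 9.52 to 11.35 of the other ventricles. Neither gene passed between tissues (Atf3 0.09 ± 0.14, adjusted p = 0.56, and Junb -0.09 ± 0.28, adjusted p = 0.78). Left ventricle replicate 4 was the high ventricle for Slpi, a protease inhibitor of epithelia, at 11.55 against 8.20 to 9.43. Hamp, the iron hormone hepcidin, was undetected on every kidney and read 8.76 to 11.73 in left ventricle, highest on replicate 6, at least 13.8-fold lower in kidney. These genes were chosen after their values were seen, and no cause was tested.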
